A study of Mus musculus with 4 samples.

Results

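Mature oligodendrocytes were followed by single-cell RNA sequencing (scRNA-seq) in the mouse hemisphere on the side of a stroke. A cell was counted as a mature oligodendrocyte when it had at least 1 unique molecular identifier (UMI, a tag that counts a captured RNA molecule once) of at least 4 of the myelin-sheath genes Mog, Mag, Ermn, Opalin and Cldn11. It also had to have at most 2 UMIs in all of Cldn5, Flt1, Myh11, Kcnj8, C1qa and Pdgfra, which mark vessel cells, microglia and oligodendrocyte progenitors. This rule found 6420 cells among 54754 that passed the filters on quality. They were 1348 of 10193 cells in sham, 2508 of 16714 on day 1, 979 of 11298 on day 3 and 1585 of 16549 on day 7.

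The animals were male C57/BL6 mice, 8 weeks old by the labels, with no transgene or drug named for any group. In the 3 stroke groups the middle cerebral artery was blocked for a time with a monofilament and then reopened (transient middle cerebral artery occlusion, tMCAO), and tissue was taken 1, 3 or 7 days later. The sham group had the operation without the occlusion, and its time after surgery is given differently in the sources and is left unstated here. All groups shared perfusion with saline, enzymatic digestion of the ipsilateral hemisphere and a Percoll step in which floating myelin debris was discarded. A hemisphere holds infarct, border and spared tissue together, so a cell's distance from the lesion was not recorded. Each group was 1 library, and the number of animals behind it was not given in the sources used here. No test between groups was therefore possible. All intervals below are 95% intervals that cover counting error only, and say nothing of the spread between animals.

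Oligodendrocytes wrap axons of the central nervous system in myelin, a stack of membrane rich in cholesterol, glycolipids and a few abundant proteins such as Mbp. They also feed axons, buffer potassium through gap junctions shared with astrocytes, and store iron. They arise from Pdgfra-positive progenitors through a short-lived newly formed stage, and mature cells are known to fall into transcriptional states, among them one high in Klk6 and one high in Ptgds and Il33. White matter is sensitive to ischemia, and mature oligodendrocytes can switch on immune and stress genes after injury.

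The members held between 7441371 UMIs on day 3 and 16559997 on day 1. Their median depth was 9288 UMIs per cell in sham, 5180 on day 1, 7076 on day 3 and 7473 on day 7, so that sham cells were the deepest and day 1 cells the shallowest. Mitochondrial transcripts made up a median of 3.82% to 5.48% of their UMIs. Any pair of libraries shared 33 to 88 cell barcodes, at most 0.562% of a library. Scrublet called 16, 102, 9 and 18 of the members doublets in sham and on days 1, 3 and 7, or 1.19%, 4.07%, 0.919% and 1.14%, and these cells were kept. The limit on exclusion genes dropped 13.8% of the cells with at least 4 markers in sham, 18.9% on day 1 and 27.4% on day 3, with day 7 between days 1 and 3, mostly for UMIs of the endothelial genes Cldn5 and Flt1. Cells just inside the rule, with exactly 4 markers, numbered 98, 579, 73 and 253 and held Mobp, a protein of compact myelin that the rule did not use, at 2558, 2396, 2330 and 3474 CPM, the gene's share of all UMIs scaled to a common total. The cells just outside it, with 3 markers, numbered 27, 28, 9 and 48 and held Mobp at 82.0, 828, 27.6 and 312 CPM. A further 18, 35, 16 and 44 cells stood outside with exactly 3 UMIs of the exclusion genes, and these held Mobp at 2540, 1705, 2328 and 3182 CPM. Free RNA from other cells, estimated in each library from 5 endothelial genes as the median of their level in the members over that in cells without a marker UMI, was 0.471%, 1.15%, 1.01% and 0.625%, highest on day 1. The rule limits UMIs of Cldn5 and Flt1 in the members, so this estimate can lie below the share of other foreign RNA. On day 1 choroid plexus genes stood at 15280 CPM in the members and 69068 in cells without a marker UMI, and neuron genes at 154 and 820.

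The genes that chose the cells are given as a description. Levels here are CPM, the UMIs of a gene summed over all members of a library as a share of all their UMIs and scaled to a common total. Where 4 values follow each other without names, they are sham, day 1, day 3 and day 7 in that order. Mag, a glycoprotein of the innermost myelin wrap, stood at 3559 CPM in sham, 3991 on day 1, 3776 on day 3 and 3076 on day 7. Mog, on the outer face of the sheath, stood at 3137, 2175, 2415 and 1911 CPM. Cldn11, the tight junction claudin of myelin, stood at 2120, 2901, 3018 and 3437 CPM, highest on day 7. Opalin, a membrane protein of the sheath, stood at 1484, 955, 1043 and 812 CPM, and Ermn, a cytoskeletal protein of mature oligodendrocytes, at 1709, 1509, 1621 and 1993 CPM. When the cells were chosen by the other 4 markers, Opalin stood at 1462, 950, 1033 and 800 CPM, in the same order. Of the members, 92.7% had a UMI of all 5 markers in sham, 76.9% on day 1, 92.5% on day 3 and 84.0% on day 7. The cells' name held against a gene the rule did not use: over all members Mobp stood at 2544, 3000, 2192 and 3377 CPM, against 14.4, 11.4, 8.67 and 24.2 in the kept cells with no UMI of any of the 5 markers.

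**Figure D1:**
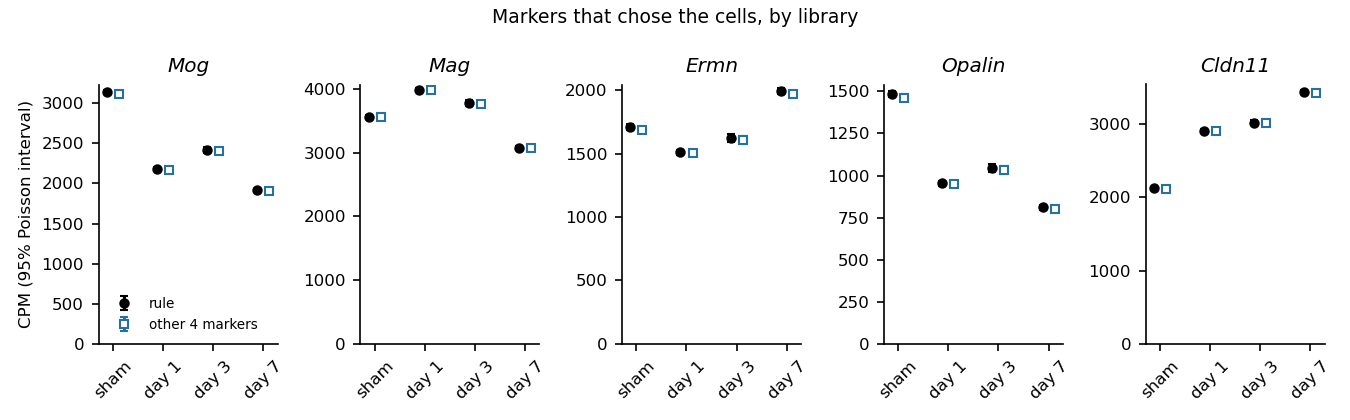
Level in CPM of the 5 marker genes in each library, with black circles for the cells of the rule and blue squares for cells chosen by the other 4 markers. Opalin and Mog were highest in sham by both ways of choosing, and Cldn11 was highest on day 7.

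Members made up 13.2% of the kept cells in sham (Clopper-Pearson interval 12.6% to 13.9%), 15.0% on day 1 (14.5% to 15.6%), 8.67% on day 3 (8.15% to 9.20%) and 9.58% on day 7 (9.13% to 10.0%). The share was highest on day 1 and was lower on days 3 and 7 than in sham. With the cells dropped for vessel, microglial or progenitor UMIs put back, the shares were 15.3%, 18.5%, 11.9% and 12.4%, in which days 3 and 7 were again the lower pair. With a UMI of all 5 markers asked for, day 1 stood below sham, at 11.5% against 12.3%. In a share of recovered cells, fewer oligodendrocytes and more of another cell type cannot be told apart.

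**Figure D2:**
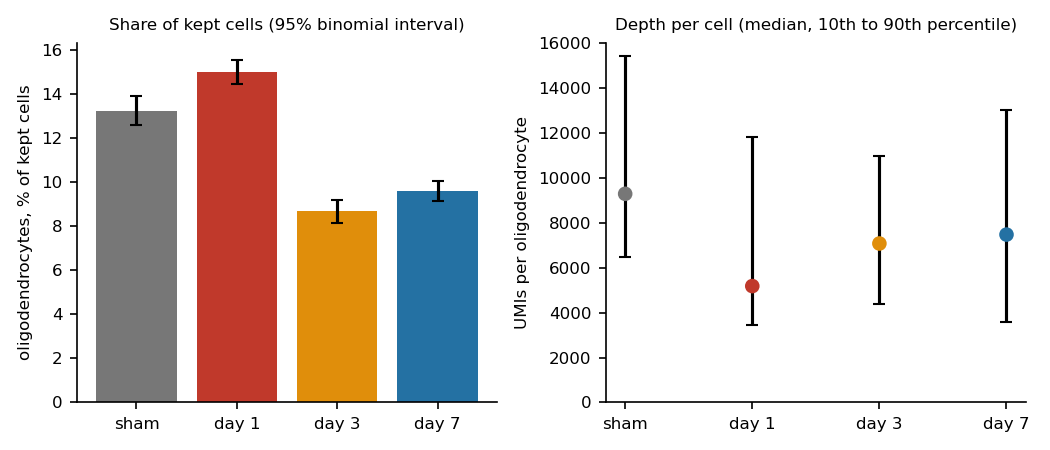
Left, the percentage of kept cells that were mature oligodendrocytes in each library, with 95% Clopper-Pearson intervals. Right, the median UMIs per member, with lines from the 10th to the 90th percentile; the share was 15.0% on day 1, where median depth was 5180 UMIs, and 13.2% in sham at 9288 UMIs.

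Each day was compared with sham gene by gene. The measure was the log2 ratio of the 2 levels with 5 CPM added to each, and a gene was said to rise or fall when it passed 2-fold on that scale, a rule of size and not a test. Of 5650 genes with a mean of at least 20 CPM over the 4 libraries, called tested below, 99 rose on day 1 (1.75%) and 42 fell (0.743%). On day 3, 46 rose (0.814%) and 8 fell (0.142%). Without members rich in choroid plexus, red cell or neutrophil genes, 15 of them on day 3, 25 rose that day. On day 7, 91 rose (1.61%) and 21 fell (0.372%). The 3 comparisons share the sham library. The median log2 ratio over all genes tested was -0.04, 0.05 and 0.05 on days 1, 3 and 7. Gene groups below are given with their own counts beside these.

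On day 1 the 2 highest log2 ratios of all genes tested were those of injury-associated genes, Serpina3n (5.94) and C4b (4.60). Serpina3n encodes a secreted inhibitor of serine proteases. Serpina3n stood at 1.87 CPM in sham (26 UMIs), 416 on day 1 (6883 UMIs), 107 on day 3 and 25.5 on day 7. It was 222-fold higher on day 1 (interval 151 to 340), 56.9-fold higher on day 3 (38.6 to 87.7) and 13.6-fold higher on day 7 (9.11 to 21.1). All 3 stroke libraries stood above sham, and each later day stood below the one before. In kept cells with no UMI of any of the 5 markers, called marker-negative cells below, Serpina3n stood at 0.998, 32.9, 18.7 and 1.45 CPM, below the members in every library. In cells picked as progenitors it stood at 30.7 CPM in sham, 921 on day 1 and 19.7 on day 7, with too few such cells on day 3, and in cells picked as astrocytes at 7.29, 244, 248 and 1.92 CPM. The gene lies at chr12:104406729-104414329 (plus strand, GRCm38) in a cluster of near-identical serpins, among which counting can split reads. Its promoter is shown because it holds a palindrome of the kind bound by glucocorticoid receptors, the motif that also stands in the promoter of Sgk1 below. The 250 bases before its RefSeq start, chr12:104406458-104406707 on the plus strand (GRCm38.p6), read 5′ to 3′ with the motif (GNACA, NNN and TGTNC in 1 run) in capitals.
Serpina3n: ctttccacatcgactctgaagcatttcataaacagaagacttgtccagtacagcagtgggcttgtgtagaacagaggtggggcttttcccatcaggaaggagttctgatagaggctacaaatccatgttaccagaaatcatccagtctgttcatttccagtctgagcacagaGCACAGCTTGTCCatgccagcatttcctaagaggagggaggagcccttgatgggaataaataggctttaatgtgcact
The motif begins 78 bases before the start, and 0.440% of the 27025 genes with such an entry have it in a promoter of theirs.

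C4b, complement component C4 and near-identical to C4a, stood at 6.34 CPM in sham, 270 on day 1, 149 on day 3 and 81.9 on day 7. It was 42.6-fold (34.5 to 53.2), 23.5-fold (18.9 to 29.6) and 12.9-fold (10.4 to 16.2) higher. Marker-negative cells held it at 8.56, 32.2, 23.9 and 7.08 CPM, so the members passed them only after tMCAO, and astrocytes at 98.4, 242, 321 and 63.3 CPM. Plin4, a lipid droplet coat protein, stood at 4.47, 76.5, 18.1 and 63.5 CPM, high on days 1 and 7 and lower between them. Its ratios were 17.1 (13.3 to 22.5), 4.06 (2.98 to 5.58) and 14.2 (11.0 to 18.7), and its day 3 rise was not past 2-fold with 20 CPM added in place of 5 (log2 0.64). Plin4 overlaps Hdgfl2 on the other strand. Of the 12 genes listed as injury-associated, 8 could be tested. On day 1, 5 of them rose, on day 3 4 rose and on day 7 3 rose, with medians of 1.36, 1.03 and 0.38. Socs3, a feedback inhibitor of cytokine signalling, stood at 38.6, 101, 54.8 and 35.2 CPM and rose on day 1. Vim, an intermediate filament, rose from 19.5 to 61.4 CPM on day 1 and stood at 36.7 and 14.8 later, but marker-negative cells held it at 1540 to 1648 CPM, and the part of such RNA in its values was not tested. Lcn2, a neutrophil and acute-phase protein, rose on day 3 to 109 CPM from 0.216 in sham, and 677 of its 810 UMIs there lay in 1 cell.

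The 2 leading genes were spread over cells differently on each day. To compare libraries of unequal depth, every member was thinned to 2000 UMIs, which left 1316, 2482, 966 and 1531 cells and left out 32, 26, 13 and 54 shallower ones. A Serpina3n UMI was then found in 0.456% of members in sham, 29.7% on day 1, 7.66% on day 3 and 2.35% on day 7, against 1.93%, 40.4%, 14.5% and 5.80% before thinning. A C4b UMI was found in 1.37%, 31.7%, 17.1% and 8.82%, against 4.60%, 48.2%, 31.4% and 17.4% before thinning. Endothelial cells at the same depth had Serpina3n in 0.0447%, 2.19%, 2.96% and 0.306%, and C4b in 1.05%, 1.31%, 3.41% and 0.918%. Their median depth was 2321 to 4356 UMIs before thinning, and the thinning left out 1474, 3381, 2455 and 4048 shallower endothelial cells. Before thinning, the 10 cells with the most Serpina3n held 38.5%, 7.16%, 44.0% and 49.4% of its UMIs. Members with a UMI of it numbered 26, 1013, 142 and 92, and in sham each of them had 1 UMI. The share held by 10 cells is larger where fewer cells have the gene, so it does not measure spread alone. On day 1, C4b was found in 56.5% of members with a Serpina3n UMI and in 21.2% of those without. It was found in 55.4% and 13.9% on day 3, where 74 cells had Serpina3n, and in 52.8% and 7.76% on day 7, where 36 did. The cells share a library and are not replicates, so no test was made of these shares.

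**Figure D3:**
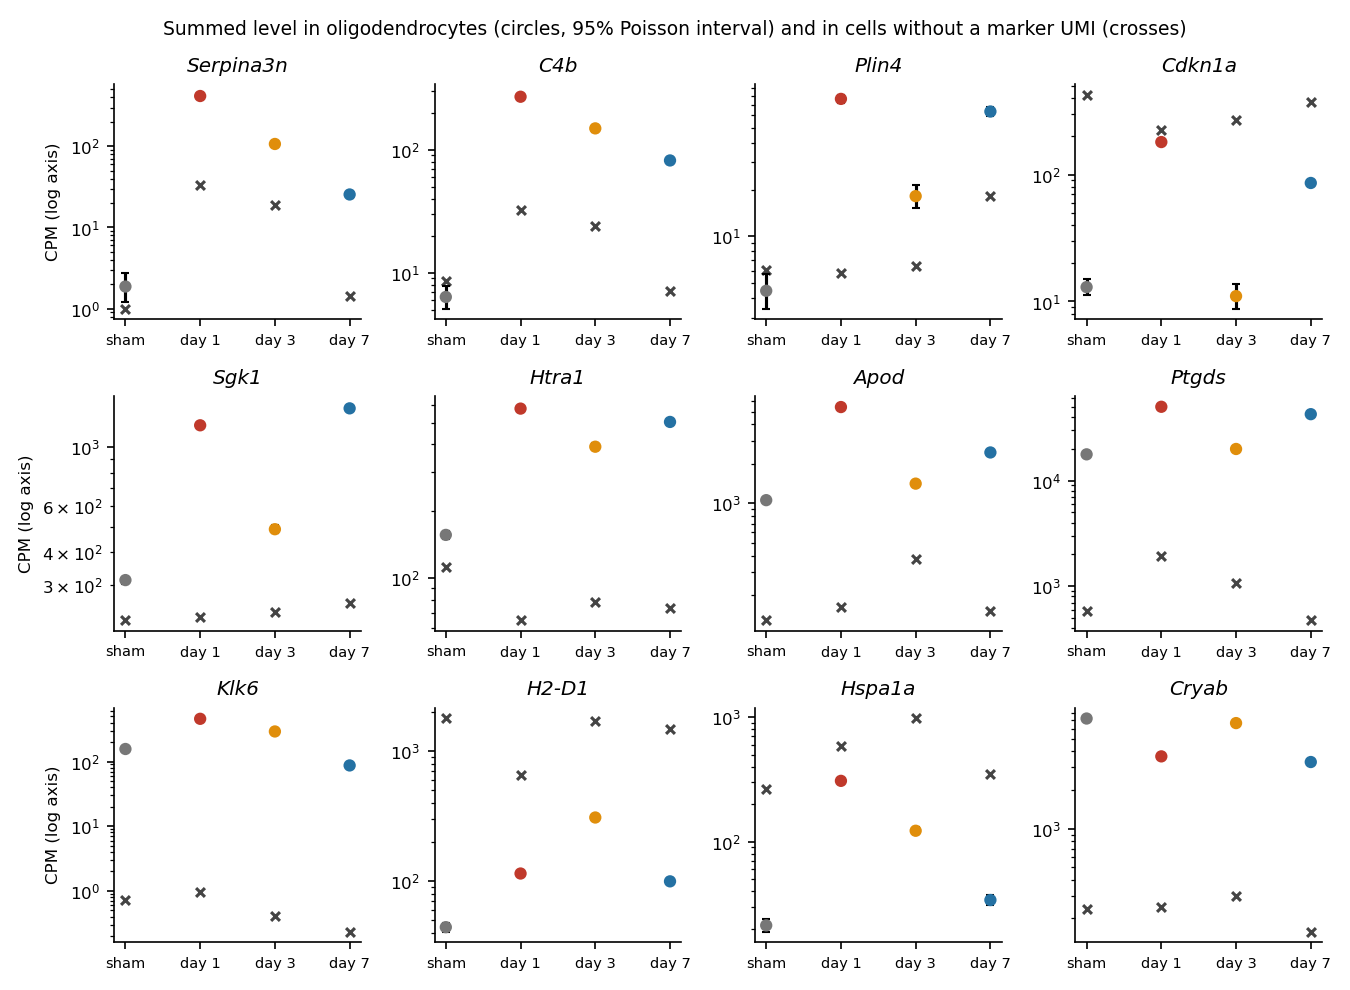
Level in CPM, on a log axis, of 12 genes in each library, with circles for mature oligodendrocytes (bars are 95% Poisson intervals) and crosses for marker-negative cells. Serpina3n, C4b, Plin4, Apod and Ptgds stood above the marker-negative cells in all 3 stroke libraries, while H2-D1, Hspa1a and Cdkn1a stood below them.

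Of 8 listed glucocorticoid-responsive genes, 4 were tested. They gave 3 rises on day 1, none on day 3 and 2 on day 7, with medians of 1.26, 0.40 and 1.32. Sgk1, a kinase induced by steroid hormones, stood at 314 CPM in sham, 1208 on day 1, 489 on day 3 and 1400 on day 7. It was 3.85-fold (3.72 to 3.98), 1.56-fold (1.49 to 1.63) and 4.46-fold (4.31 to 4.61) higher, and so rose on days 1 and 7. Marker-negative cells were nearly level, at 221, 227, 237 and 256 CPM, as were endothelial cells, at 265, 258, 226 and 285. Progenitors held 111 CPM in sham, 178 on day 1 and 233 on day 7. After thinning, 35.9% of members in sham, 85.6% on day 1, 52.3% on day 3 and 86.5% on day 7 had a Sgk1 UMI, against 69.2%, 97.6%, 81.9% and 96.5% before it. Most members of each stroke library thus had a Sgk1 UMI after thinning, and most members of every library had one before it. In endothelial cells the thinned shares were 30.4%, 35.6%, 27.1% and 35.7%. Zbtb16, a zinc finger repressor and steroid target, stood at 14.0, 41.5, 22.3 and 56.3 CPM, and rose on days 1 and 7. Per1, a clock gene that steroids also induce, stood at 17.5, 47.3, 21.0 and 38.5 CPM and rose on day 1. Tsc22d3, which encodes the glucocorticoid-induced leucine zipper, stood at 120, 136, 146 and 115 CPM, with no value past 2-fold. Fkbp5, a chaperone of the steroid receptor, was under the minimum level for a call, was named after its values were seen, and stood at 3.17, 48.3, 7.66 and 18.5 CPM, ratios of 15.2 (11.2 to 21.1), 2.42 and 5.84.

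The Sgk1 gene lies at chr10:21882184-21999903 (plus strand, GRCm38) and has 6 RefSeq starts. One of the promoters is shown, since it holds the glucocorticoid receptor palindrome in full. It is chr10:21993640-21993889 on the plus strand (GRCm38.p6), with the match to the same motif in capitals.
Sgk1: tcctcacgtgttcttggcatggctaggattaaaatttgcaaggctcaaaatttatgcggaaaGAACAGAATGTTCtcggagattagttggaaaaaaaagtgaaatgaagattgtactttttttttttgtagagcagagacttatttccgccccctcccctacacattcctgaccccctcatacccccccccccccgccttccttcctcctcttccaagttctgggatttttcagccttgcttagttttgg
The match begins 188 bases before the start, and the heat shock motif GAANNTTC overlaps it from base 183. Within the glucocorticoid list, 2 of 7 genes with a promoter entry held the glucocorticoid motif, Sgk1 and Map3k6. Map3k6 was not among the genes tested for level. The STAT motif TTCNNNGAA was found in 3 of the 7 (Sgk1, Tsc22d3 and Per1), against 8.13% of all genes. Other Sgk1 promoters held STAT, interferon and heat shock motifs. Use of any of these sites was not tested. Tsc22d3, Per1, Zbtb16 and Fkbp5 showed no glucocorticoid match in these short windows, which says nothing of sites elsewhere.

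Heat shock genes moved in part. Hspa1a, the inducible Hsp70 chaperone, stood at 21.3 CPM in sham, 308 on day 1, 122 on day 3 and 34.0 on day 7. It was 14.5-fold (12.9 to 16.3), 5.75-fold (5.04 to 6.58) and 1.60-fold higher. Its near-identical neighbour Hspa1b, with which it can share reads, stood at 14.6, 227, 108 and 29.6 CPM, ratios of 15.5, 7.36 and 2.02. Marker-negative cells held more Hspa1a in every library, at 267, 583, 980 and 347 CPM, and endothelial cells 314, 1019, 1242 and 412. In the members the highest level was on day 1, and in marker-negative cells on day 3. Dnajb1, the Hsp40 partner of Hsp70, stood at 50.9, 255, 66.8 and 37.6 CPM and rose on day 1. Its marker-negative level was 81.4, 86.8, 121 and 55.3 CPM, and the members stood above it on day 1. Hspb1, a small heat shock protein, rose from 15.0 CPM in sham to 86.1 on day 1 and 49.2 on day 3, far under its marker-negative level of 1443 to 2217 CPM. Cryab, the small heat shock protein abundant in oligodendrocytes, went the other way, at 7225, 3662, 6657 and 3310 CPM. Its ratios were 0.507, 0.921 and 0.458, and it fell on day 7 (log2 -1.13) and was just inside 2-fold on day 1 (log2 -0.98). Cryab overlaps Hspb2. Of 13 chaperone genes tested, 4 rose on day 1, 3 on day 3 and none on day 7, when Cryab fell, with medians of 0.05, 0.42 and 0.14.

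The promoters of both Hsp70 genes are shown because they are almost the same sequence and carry one heat shock motif in the same place. Both genes lie on the minus strand of chromosome 17, Hspa1a at chr17:34969190-34972156 and Hspa1b at chr17:34956436-34959238 (GRCm38). Their promoters are chr17:34972157-34972406 and chr17:34959239-34959488 (GRCm38.p6), written here 5′ to 3′ on the gene's strand with the match to GAANNTTC in capitals.
Hspa1a: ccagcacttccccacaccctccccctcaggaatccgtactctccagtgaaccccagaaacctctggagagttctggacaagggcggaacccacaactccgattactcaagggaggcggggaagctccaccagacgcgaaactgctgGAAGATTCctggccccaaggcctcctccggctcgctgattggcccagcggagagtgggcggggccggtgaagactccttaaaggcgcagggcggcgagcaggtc
Hspa1b: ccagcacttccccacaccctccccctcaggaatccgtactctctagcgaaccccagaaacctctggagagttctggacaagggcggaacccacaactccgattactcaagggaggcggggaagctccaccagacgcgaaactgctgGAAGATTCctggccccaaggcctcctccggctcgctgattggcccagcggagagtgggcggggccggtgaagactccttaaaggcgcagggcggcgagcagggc
The sequences are identical at 247 of 250 bases, and the motif begins 104 bases before the start in each. Of 10 listed chaperone genes with an entry, 6 held GAANNTTC (Hspa1a, Hspa1b, Dnaja1, Hspb1, Hspe1 and Hspd1), against 7.73% of all genes. The other motifs searched on both strands, with their share of all genes, were the STAT motif TTCNNNGAA (8.13%), the interferon motif of GAAA, NN and GAAA (3.46%), the cAMP motif TGACGTCA (1.77%) and the sterol motif TCACNCCAC (1.22%).

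Cdkn1a, which encodes the cell cycle inhibitor p21 and is a target of p53, stood at 13.0 CPM in sham, 180 on day 1, 11.0 on day 3 and 85.8 on day 7. It was 13.9-fold higher on day 1 (11.9 to 16.2) and 6.61-fold higher on day 7 (5.64 to 7.78), while the day 3 ratio was 0.849 (0.646 to 1.11), an interval that includes 1. Marker-negative cells held more of it in each library, at 422, 222, 270 and 372 CPM, and in a different order, lowest on day 1. Endothelial marker genes summed to 62.9, 90.1, 130 and 68.6 CPM in the members. The part of foreign RNA in Cdkn1a was not tested. The free RNA estimate cannot settle it, since it rests on endothelial genes and the rule limits endothelial UMIs in the members. After thinning, 1.52%, 27.9%, 1.97% and 14.4% of members had a Cdkn1a UMI (before thinning 6.68%, then 1253 of 2508 cells on day 1, 6.13% and 33.9%), against 46.0%, 41.8%, 35.3% and 47.0% of endothelial cells. The gene lies at chr17:29090976-29100727 (plus strand, GRCm38) and overlaps AC167363.2. Of 5 p53 targets tested it was the only one past 2-fold on any day. Phlda3, another target, stood at 527, 425, 482 and 306 CPM. In the integrated stress response, the program in which Atf4 and Ddit3 answer stalled translation, none of 7 genes tested rose on days 1 and 3 and 2 rose on day 7. They were Ddit4, an inhibitor of mTORC1 signalling, at 95.9, 118, 67.3 and 295 CPM, and Psat1, an enzyme of serine synthesis, at 256, 320, 294 and 538 CPM. Atf4 itself stood at 56.4, 64.3, 57.1 and 53.6 CPM and Ddit3 at 45.6, 47.4, 42.3 and 40.2.

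Of 10 listed genes of MHC class I, which displays peptides to CD8 T cells, 3 were tested, and 2 rose on day 1, 3 on day 3 and 1 on day 7. H2-D1, a heavy chain, stood at 44.2 CPM in sham, 114 on day 1, 308 on day 3 and 99.5 on day 7. It was 2.59-fold, 6.97-fold (6.37 to 7.63) and 2.25-fold higher, highest on day 3, and its day 7 value was not past 2-fold among members with at most 3000 genes (log2 0.92) or with a UMI of all 5 markers (log2 0.97). Over 14 settings the day 7 log2 ratio of H2-D1 ran from 0.896 to 1.43. H2-K1, the other classical heavy chain, stood at 30.9, 84.4, 68.5 and 51.1 CPM. B2m, the shared light chain, stood at 26.0, 53.3, 77.7 and 54.5 CPM. H2-K1 rose on days 1 and 3 and B2m on day 3. In marker-negative cells H2-D1 stood at 1788, 651, 1696 and 1468 CPM, so that on day 1 it was lowest in these cells and higher than sham in the members. Endothelial marker genes summed to 62.9, 90.1, 130 and 68.6 CPM in the members, highest on day 3 as H2-D1 was, and Ly6a, one of the 5, rose that day. Their sum in marker-negative cells was 12316, 7111, 12732 and 10064 CPM. The part of foreign RNA in H2-D1 and the other MHC genes was not tested, for the same reason as with Cdkn1a. None of 5 interferon-stimulated genes tested passed 2-fold, and their medians were 0.42, 0.39 and -0.37. Ifi27, the most abundant, stood at 315, 270, 319 and 186 CPM. The 17 listed genes summed to 612, 587, 665 and 441 CPM in the members and to 10115, 2858, 6215 and 3672 in marker-negative cells.

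Among genes of high abundance, Ptgds and Apod rose on days 1 and 7 and not on day 3. Ptgds, which encodes prostaglandin D2 synthase, stood at 17695 CPM in sham, 49896 on day 1, 19889 on day 3 and 42471 on day 7, ratios of 2.82, 1.12 and 2.40. Marker-negative cells held 579, 1945, 1083 and 476 CPM. Apod, which encodes the lipid carrier apolipoprotein D, stood at 1057, 5412, 1412 and 2440 CPM, ratios of 5.12, 1.34 and 2.31, with 129 to 374 CPM in marker-negative cells. The day 7 rise of Apod was not past 2-fold among cells with a UMI of all 5 markers (log2 0.84). At 2000 UMIs per cell, the 10th percentile, median and 90th percentile of Apod UMIs were 0, 2 and 5 in sham and 0, 6 and 33 on day 1. The day 1 cells thus spread more widely than the sham cells at the same depth. For Ptgds the median was 27 in sham, 97 on day 1, 33 on day 3 and 88 on day 7. Il33, an alarmin that marks the same mature state, did not move with them, at 780, 630, 1151 and 728 CPM. Jph4, a junctophilin of the same list, fell on day 1, at 181, 81.6, 92.1 and 100 CPM. Over the 8 genes of the Ptgds state the medians were -0.35, 0.12 and 0.33, so the list did not move as one.

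Klk6, a secreted serine protease that marks another mature state, stood at 156 CPM in sham, 457 on day 1, 291 on day 3 and 87.0 on day 7. It was 2.93-fold higher on day 1 (2.79 to 3.07) and 1.87-fold higher on day 3 (1.76 to 1.98), and 0.557 times sham on day 7 (0.518 to 0.599). Over all members it passed 2-fold on day 1 (log2 1.52) and not on day 3 (0.88) or day 7 (-0.81). The 10 cells with the most Klk6 held 23.1% of its UMIs in sham, 8.75% on day 1, 41.7% on day 3 and 31.0% on day 7. Marker-negative cells held Klk6 at no more than 0.965 CPM in any library. Of the 4 listed genes of the Klk6 state it was the only one past 2-fold, and the list had medians of 0.43, -0.14 and -0.41, with 3 of 4 below sham on day 3 and 4 of 4 on day 7. Hopx, a homeodomain protein of that list, stood at 79.8, 135, 51.1 and 59.9 CPM, and Anxa5, an annexin, at 81.3, 54.3, 73.0 and 59.0, lower on day 1 where Klk6 was higher. After thinning, 9.35%, 22.2%, 11.5% and 5.88% of members had a Klk6 UMI (17.2%, 28.9%, 17.6% and 11.0% before), and at most 0.291% of endothelial cells did. The level was also read by the number of genes detected in a cell. Among members with at most 3000 genes Klk6 stood at 19.5 CPM in sham, 466 on day 1, 101 on day 3 and 22.8 on day 7. Among those with more genes it stood at 246, 438, 718 and 154 CPM. The sham level thus differed widely between the groups of this split and the day 1 level little. Over 14 settings the log2 ratio ran from 1.23 to 4.27 on day 1, from 0.60 to 2.11 on day 3 and from -1.27 to 0.18 on day 7. With at most 3000 genes it was 4.27, 2.11 and 0.18, so that day 3 passed 2-fold and the sign of day 7 turned. Day 3 also passed it among members with a UMI of all 5 markers (1.94) or with none of the exclusion genes (1.13).

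Klk6-positive cells were then described by what else they carried, all thinned to 2000 UMIs. They numbered 123, 552, 111 and 90 in sham and on days 1, 3 and 7. In sham S100b, a calcium-binding protein, was found in 82.1% of them against 11.0% of cells without Klk6, and Hopx, a listed gene of the Klk6 state, in 47.2% against 3.27%. In sham Ptgds was found in 28.5% against 93.1% and Il33 in 17.9% against 73.3%. On day 1, S100b was found in 20.7% against 4.66%, Hopx in 27.7% against 5.13%, Ptgds in 91.1% against 99.4%, near the top of the scale, and Il33 in 51.8% against 59.7%. Endothelial cells at the same depth had a Ptgds UMI in 15.3%, 26.8%, 19.0% and 25.5% in sham and on days 1, 3 and 7, and the part of free RNA in the members' shares of cells was not tested. On day 3, S100b was found in 39.6% against 6.08%, Hopx in 25.2% against 2.57%, Ptgds in 74.8% against 97.0% and Il33 in 60.4% against 82.7%. On day 7, S100b was found in 76.7% against 8.88%, Hopx in 47.8% against 3.61%, Ptgds in 52.2% against 97.4% and Il33 in 18 of 90 cells against 69.6%. Opalin, which the rule used and whose shares are therefore only a description, was found in 30.1% of cells with Klk6 against 90.8% without in sham, 52.4% against 65.1% on day 1, 51.4% against 81.9% on day 3 and 13.3% against 71.3% on day 7. Serpina3n was found more often with Klk6 than without it, in 69.2% against 18.4% on day 1, 36.9% against 3.86% on day 3 and 10.0% against 1.87% on day 7. In sham the shares were 0.813% and 0.419%, or 1 and 5 cells. Cells with Klk6 were deeper before thinning, with a median of 12294 against 9141 UMIs in sham and 6210 against 4959 on day 1. S100b was added to this description after its values were seen.

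**Figure D4:**
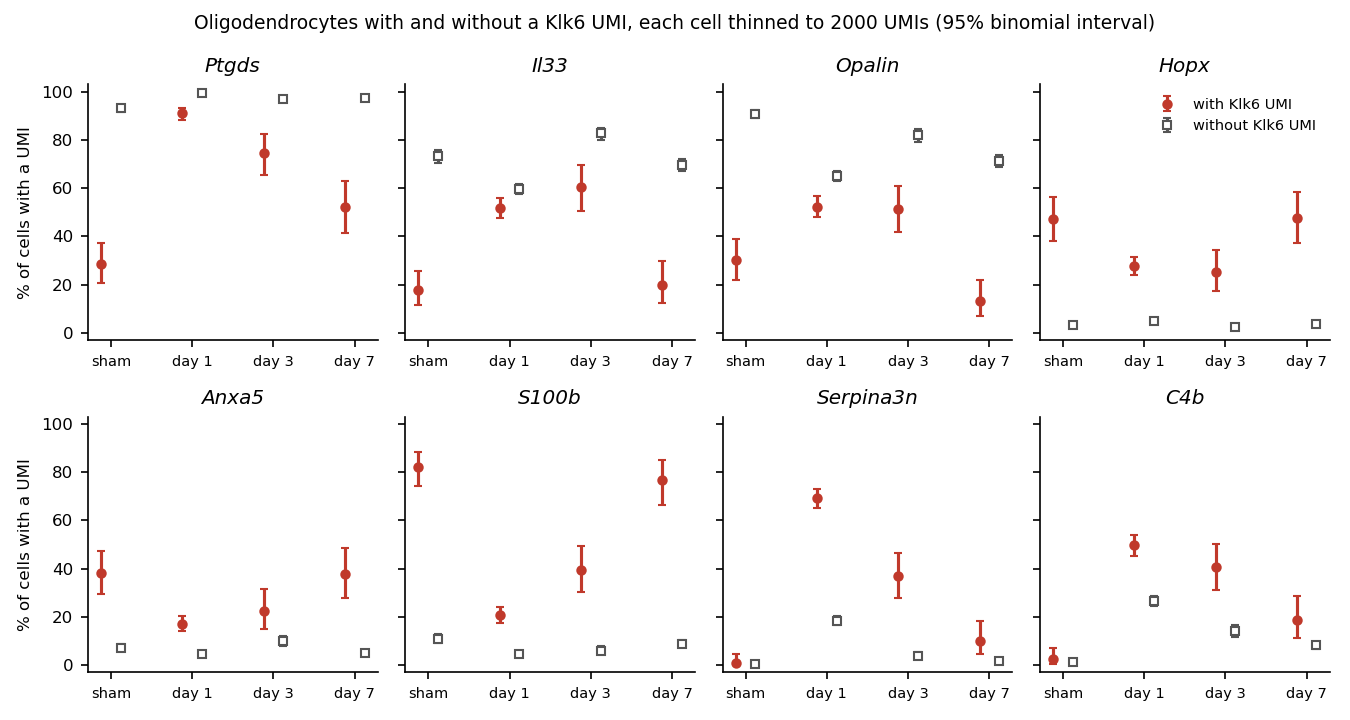
Percentage of members with a UMI of each of 8 genes, in cells with (red) and without (open) a Klk6 UMI, in each library at 2000 UMIs per cell (Opalin is a gene of the rule). In sham, Ptgds was found in 28.5% of cells with Klk6 and 93.1% of those without, and on day 1 in 91.1% and 99.4%.

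Among the genes that fell were S100b and Serpinb1a, an inhibitor of neutrophil proteases. S100b stood at 299 CPM in sham, 76.3 on day 1, 129 on day 3 and 184 on day 7, and fell on days 1 and 3 (log2 -1.90 and -1.18). Among members with at most 3000 genes it stood at 64.1, 71.7, 77.9 and 73.6 CPM, so that the fall was not found there and the sign turned (log2 0.15 and 0.26). Among members with more genes it stood at 453, 85.4, 243 and 299 CPM. S100b overlaps Dip2a on the other strand. Serpinb1a stood at 360, 102, 294 and 263 CPM and fell on day 1. Wfdc18, a secreted protein, stood at 61.1, 14.9, 38.4 and 24.4 CPM, and Ccdc13, a centrosomal protein, at 94.6, 35.6, 84.1 and 60.2. The noncoding RNA C030029H02Rik stood at 272, 59.9, 174 and 204 CPM. All of these fell on day 1, where each was lowest, and Wfdc18 also fell on day 7 (log2 -1.17). On day 7 Fabp5, a fatty acid carrier, fell to 512 CPM from 1324 in sham, with 1284 and 1211 between. Poc1a, a centriole protein, stood at 91.8, 91.6, 66.1 and 34.1 CPM, Itih3, a secreted protein of the extracellular matrix, at 134, 76.1, 124 and 58.2, and Ndn, the imprinted gene necdin, at 51.5, 38.5, 28.9 and 16.0, and all 3 fell on day 7. Gm47283, a predicted gene, stood at 165, 132, 112 and 32.2 CPM and fell on day 7, with 180, 119, 101 and 43.1 in marker-negative cells. Hist1h1e, a linker histone, stood at 93.7, 26.5, 27.8 and 119 CPM and fell on days 1 and 3, with 136, 41.8, 38.5 and 141 in marker-negative cells. Fewer than 8 genes of the rule for named genes fell on day 3. Next in line were Jph4, given above (log2 -0.94 on day 3), and then Shisa8, Tmem141 and Inpp5f. Shisa8, Tmem141 and Inpp5f stood at 55.4, 141 and 270 CPM in sham and 27.7, 74.6 and 154 on day 3. Gm42418, a locus that collects ribosomal RNA reads, stood at 6820, 902, 1221 and 2747 CPM. Its marker-negative level moved the same way, at 8813, 991, 1661 and 4495 CPM. Lars2, the mitochondrial leucyl-tRNA synthetase, did so too, at 230, 47.3, 61.0 and 123 CPM in the members and 382, 60.3, 114 and 288 in marker-negative cells.

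Among the largest rises outside these lists was Htra1. Htra1, a secreted protease, stood at 157, 580, 391 and 505 CPM and rose on all 3 days, and overlaps Fgfr2, while marker-negative cells held it at 113, 64.7, 78.5 and 73.7. Itgad, an integrin subunit that overlaps several genes, stood at 22.3, 166, 29.7 and 83.8 CPM, ratios of 7.46 (6.63 to 8.42), 1.33 and 3.76, with at most 0.433 CPM in marker-negative cells. Scrg1, a small secreted protein, stood at 6.63, 95.4, 16.3 and 47.7 CPM, ratios of 14.4, 2.45 and 7.20. These last genes were high on days 1 and 7 with a lower day 3 between them, as Sgk1, Plin4, Ptgds, Apod and Cdkn1a were. Gstm1, a glutathione transferase, rose on all days, at 51.5, 145, 110 and 111 CPM. Grcc10 stood at 38.1, 46.1, 88.0 and 33.2 CPM and rose on day 3, with 69.2, 88.7, 157 and 59.3 in marker-negative cells. On day 7 alone, Arl4d, a small GTPase, stood at 153 CPM against 37.1 in sham, with 55.0 and 38.8 on days 1 and 3. Abca1, which exports cholesterol from cells, stood at 11.0, 24.1, 18.5 and 52.4 CPM, 4.79-fold higher on day 7.

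In the members, the genes of the sheath itself stayed within 2-fold. None of 13 myelin protein genes passed it on any day, and their medians were -0.25, -0.07 and 0.11. The rule asks for UMIs of sheath genes, so a cell that had lost them would not be counted. These values therefore cover the chosen cells only. Mbp, the basic protein that compacts the membrane, stood at 4646, 3775, 4414 and 4655. Cd9, a tetraspanin of the sheath, was the widest of those named, at 1295, 2474, 2300 and 1069 CPM, higher on days 1 and 3. At 2000 UMIs per cell the median of Mbp was 9 UMIs in sham, 8 on day 1, 9 on day 3 and 9 on day 7, nearly the same share of a cell's UMIs in each library. Mal, a lipid-raft protein of myelin, stood at 11255, 8728, 8724 and 10955 CPM, lower on days 1 and 3. Enzymes and regulators of sterol synthesis, which supplies myelin with cholesterol, also stayed within 2-fold. On day 1, 15 of 19 tested stood above sham, while 18 stood below it on day 3 and 16 on day 7, with medians of 0.18, -0.29 and -0.41. The summed level was 1.21, 0.832 and 0.799 times sham. Insig1, a brake on the pathway, stood at 148, 296, 199 and 214 CPM, and Fdps, a farnesyl diphosphate synthase, at 214, 250, 207 and 122. Of 12 genes of fatty acid and glycolipid synthesis none passed 2-fold, with medians of 0.04, 0.04 and 0.13, and Scd2, the desaturase, stood at 1912, 2083, 1710 and 2623 CPM.

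Of 11 transcription factors of the lineage tested none passed 2-fold on days 1 and 3. Their medians were -0.04, 0.07 and 0.36, and 9 stood above sham on day 7. The 1 that rose was Tcf7l2, an effector of Wnt signalling, at 21.5, 31.8, 36.3 and 64.7 CPM and 3.01-fold higher on day 7 (2.64 to 3.45). Sox10, a master factor of the lineage, stood at 430, 398, 473 and 474 CPM and Olig1 at 1251, 767, 1041 and 956. Zeb2, a repressor that acts in myelination, stood at 375, 364, 371 and 684 CPM. Within the members, genes of the newly formed stage did not rise, with medians of -0.82, -0.19 and -0.29 over 5 tested of 13. The rule asks for mature markers and limits Pdgfra, so newly formed cells outside it are not counted in these values. Bcas1, a marker of early myelinating cells, stood at 417, 231, 365 and 339 CPM and Enpp6 at 107, 58.8, 90.7 and 119. Among 8 gap junction and channel genes none passed 2-fold, with medians of 0.00, -0.15 and 0.55. Gjc3, a connexin, stood at 413, 270, 298 and 616 CPM, Kcna1 at 253, 244, 194 and 437, and the potassium channel Kcnj10 at 155, 180, 147 and 247. Each was highest on day 7. Genes of axon contact had none of 10 past 2-fold (medians -0.22, 0.02 and 0.33), and Rtn4, the growth inhibitor Nogo, stood at 1551, 1014, 1558 and 1931 CPM.

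**Figure D5:**
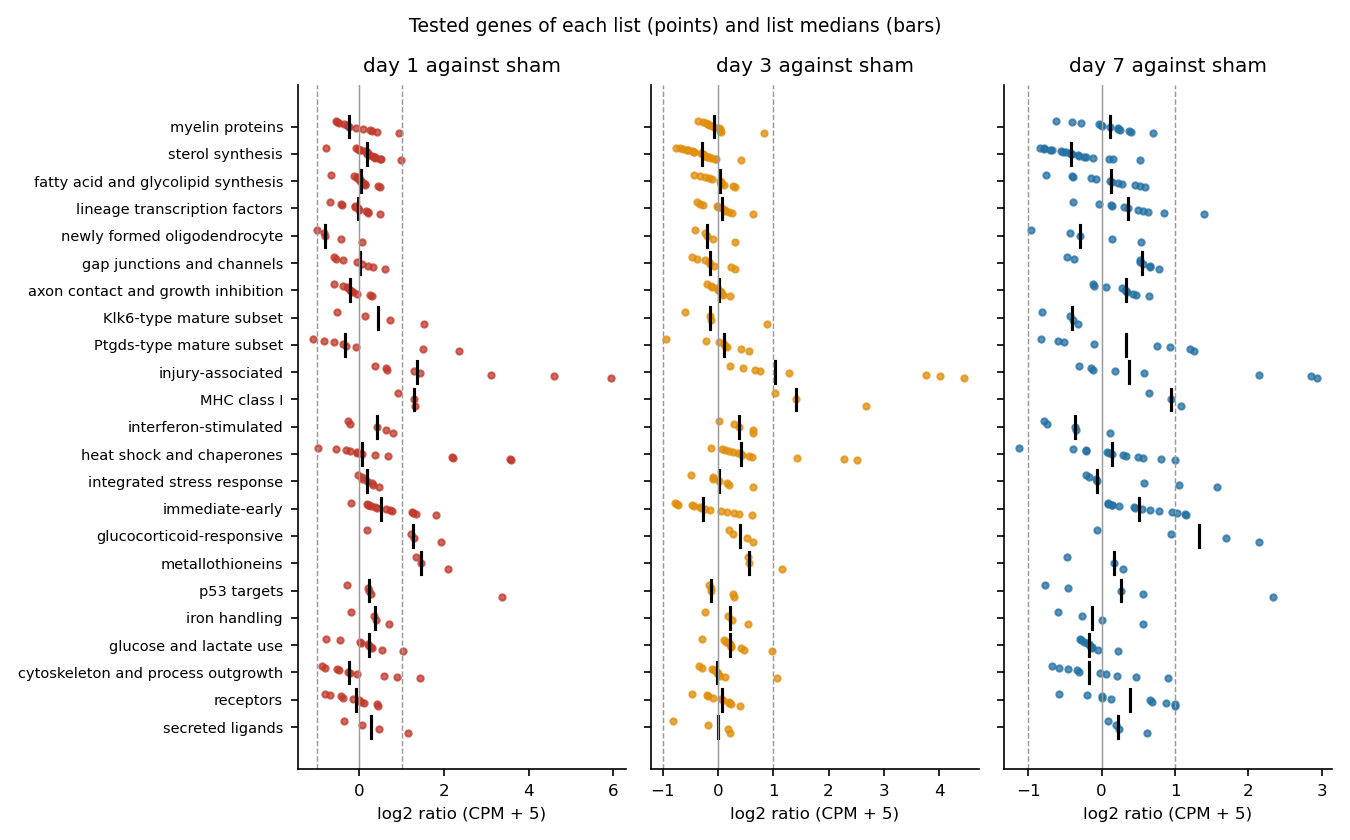
Log2 ratio to sham of each tested gene in 23 gene lists on days 1, 3 and 7, with a bar at each list's median and dashed lines at 2-fold. No myelin protein or sterol gene lay past a dashed line, and the injury-associated list had medians of 1.36, 1.03 and 0.38.

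Metallothioneins, small proteins that bind zinc and copper, all rose on day 1, 3 of 3, and 1 rose on day 3 and none on day 7. Mt1 stood at 1145, 2889, 1686 and 1285 CPM, Mt2 at 56.2, 162, 84.7 and 69.9, and Mt3 at 92.1, 412, 211 and 64.8. In marker-negative cells Mt3 was higher and moved in step, at 547, 2527, 925 and 340 CPM, and the part of such RNA in the members was not tested. Of iron genes, 4 tested stayed within 2-fold. Fth1, the ferritin heavy chain, stood at 27528, 35122, 31436 and 27766 CPM, and Trf, which encodes transferrin, at 4850, 6396, 7075 and 3200. Among 10 genes of glucose and lactate use Ldha, lactate dehydrogenase A, rose on day 1, at 41.9, 90.1, 86.8 and 36.5 CPM, and lay just inside 2-fold on day 3 (log2 0.97). Among 10 cytoskeletal genes Dpysl2, which acts in process outgrowth, rose on day 3, at 430, 801, 903 and 810 CPM, and Tubb3, a tubulin, rose on day 1, at 119, 328, 130 and 167. Neuron marker genes summed to 24.6, 154, 10.1 and 8.73 CPM in the members, also highest on day 1, and the part of neuronal RNA in Tubb3, which neurons express, was not tested.

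Of 14 immediate-early genes tested, which answer a stimulus within minutes, 4 rose on day 1, none on day 3 and 3 on day 7. The list of 15 summed to 5229, 6010, 3677 and 6319 CPM in the members and to 21680, 10258, 14588 and 24832 in marker-negative cells, lower than sham on day 3 and higher on day 7 in both, and the part of such RNA was not tested. Junb stood at 171, 415, 178 and 203 CPM, Atf3 at 17.9, 74.7, 24.7 and 31.1, and Nr4a1 at 13.8, 39.5, 23.9 and 36.6. Zfp36, an RNA decay factor, stood at 33.8, 92.3, 30.1 and 73.9 CPM, and Fosb at 136, 166, 77.8 and 309. Among 10 receptors 1 rose, Igf1r, the receptor for insulin-like growth factor 1, at 28.7, 40.7, 39.4 and 62.4 CPM with 393, 338, 325 and 818 in marker-negative cells. Il1rap, a subunit of the interleukin 1 receptor, stood at 108, 145, 113 and 221 CPM. Among 4 ligands Cxcl12, a chemokine, rose on day 1 to 45.4 CPM from 17.8 and stood at 7.93 and 21.2 on days 3 and 7. Marker-negative cells held Cxcl12 at 1196, 355, 746 and 1671 CPM, lowest on day 1.

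Genes of other cells were found in the members at levels that differed by library. Ttr, the leading transcript of choroid plexus, summed with 2 other choroid genes to 3234, 15280, 8740 and 2302 CPM, against 29098, 69068, 52071 and 19493 in marker-negative cells. The 10 cells with the most Ttr held 82.4%, 31.8%, 88.3% and 82.3% of its UMIs. Hemoglobin genes summed to 1614, 199, 1431 and 513 CPM, and 10 cells held 92.7% to 97.2% of Hbb-bs in every library. Neutrophil genes summed to 1.23, 7.25, 1070 and 2.09 CPM, and on day 3 3374 of the 3958 UMIs of S100a8 and 1145 of the 1154 of Ngp lay in 1 cell. Microglial markers summed to 45.7, 47.6 and 29.3 CPM on days 1, 3 and 7 and less in sham, with Tmem119 at 0 on day 7, pericyte markers to 24.9, 64.6, 67.2 and 37.9, and astrocyte markers to 45.3, 76.3, 62.1 and 73.2. T and NK cell markers were both at 0 on day 3. Members with over 5% of their UMIs from choroid plexus, red cell or neutrophil genes numbered 11, 44, 15 and 8. Without them Ngp was no longer past 2-fold on day 3 (log2 0.28). Serpina3n, C4b, Sgk1 and Klk6 kept their direction and calls without these cells.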

How the data were processed

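The deposited files hold whole-number UMI counts per gene and cell, one matrix per library, made by the authors with Cell Ranger (4.0.0 in the file headers, 3.0.1 in the submitters' processing notes, which also name Seurat 4.1.2 and the human build GRCh38, although the files hold mouse gene IDs). Of 31053 features, 30934 (99.6%) matched GENCODE vM21 on GRCm38, and promoters came from RefSeq on GRCm38.p6. Libraries held 11744, 17780, 11983 and 17922 barcodes and 69392755 to 104023002 UMIs. The filters on quality asked for 200 to 6000 genes and no more than 10% of UMIs from mitochondrial genes. Counts of the members were summed per library and divided by their total to give CPM. Levels have exact Poisson, ratios exact conditional and shares Clopper-Pearson 95% intervals. No p-value was computed, since each group had 1 library. Comparison cells were picked by their own markers. Scrublet (scanpy 1.11.5) marked doublets, which were kept. Python 3.11.15, numpy 2.4.6, scipy 1.17.1, pandas 2.3.3 and matplotlib 3.10.9 were used. The members and gene lists were chosen with earlier results of these data known. Named genes were taken from the rule genes, from the 4 of highest level and those past 2-fold in each list, and from the 8 largest rises or falls of a day. These largest changes were limited to genes with at least 50 CPM in 1 of the libraries. Their level in marker-negative cells had to be at most 2 times that of the members. Fkbp5, S100b in the description of Klk6 cells, and Lcn2 and Ngp by cell, were looked at after their values were seen. The 35 symbols that stand for more than 1 gene ID, Aldoa among them, were kept apart by ID and left out of the gene lists. The alternatives tried were other filters on cells, markers, levels, added constants, scaling and weighting of cells.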

Additional observations from a re-analysis of the deposited data

How the results depend on the processing

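Of the shares of members and the counts of genes past 2-fold under each alternative, 88 stayed close to the values reported and 34 moved. Of the other values followed, log2 ratios of single genes among them, 1747 stayed close, 577 moved and 2 reversed. With at most 3000 genes per cell the share of members was 9.67% in sham, 15.9% on day 1 and 7.82% on day 7, and with at most 5% mitochondrial UMIs it was 11.3% in sham and 5.22% on day 7. With all 5 markers the shares were 12.3%, 11.5%, 8.02% and 8.05%, and with no UMI of the exclusion genes 9.28%, 11.6%, 6.36% and 6.57%. Without Scrublet doublets they were 15.6% on day 1 and 10.1% on day 7, and with membership called at 1000 UMIs 13.2% on day 1. On day 3, 26 genes rose with at most 3000 genes per cell, 25 without members rich in choroid plexus, red cell or neutrophil genes (chosen after seeing the data), 21 with 20 CPM added, 79 with no minimum level, 20 with a mean of at least 50 CPM and 27 with each cell weighted equally. The falls of day 3 numbered 13 with at most 5% mitochondrial UMIs, 5 with 20 CPM added, 17 with no minimum and 5 with at least 50 CPM. On day 7, 32 fell with no exclusion UMI and 34 with 1 CPM added, and 147 rose with 1 CPM added, 36 with 20 CPM added and 54 with at least 50 CPM. On day 1, 20 fell with 20 CPM added, and 314 rose with no minimum and 47 with at least 50 CPM. S100b reversed with at most 3000 genes per cell, to log2 0.15 on day 1 and 0.26 on day 3. Over 14 settings the log2 ratios ran from 4.32 to 7.18, 2.53 to 5.23 and 1.06 to 3.20 for Serpina3n on days 1, 3 and 7, and from 3.46 to 5.21, 2.68 to 4.36 and 1.95 to 3.50 for C4b. Apart from the counts with a changed minimum or added constant, which follow from how those are built, the cause was not tested. Depth limits genes near 3 UMIs per library. No paired analysis was possible because each group had 1 library.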

Other observations

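Cytosolic ribosomal protein genes, which build the machinery of translation, stayed within 2-fold in the members, and most stood below sham on day 7. Their summed level was 50752 CPM in sham, 56759 on day 1, 52466 on day 3 and 39708 on day 7, and in marker-negative cells it was 86081, 116231, 95635 and 81449 CPM, in the same order. Of 80 tested, 71 stood below sham on day 7, and the medians were 0.15, 0.06 and -0.37, against -0.04, 0.05 and 0.05 over all genes tested. The 13 transcripts of the mitochondrial genome, which encode subunits of the respiratory chain, had medians of -0.36, -0.35 and 0.42. Among them mt-Atp8 fell on day 1 (log2 -1.03), and no other passed 2-fold on any day. The summed level of the 13 was 47378, 38138, 38969 and 54586 CPM, and in marker-negative cells 39520, 34914, 30663 and 40915, both highest on day 7 and below sham on days 1 and 3. Kept cells were limited to at most 10% mitochondrial UMIs.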
